A study of Mus musculus with 4 samples.

Results

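The genes of the cell cycle were examined in dissociated mouse dorsal root ganglia (DRG), as 20 genes of S phase and 29 genes of G2 and mitosis (G2M). These 49 genes were taken by symbol from a list of cell cycle markers. The list was chosen with earlier results of these data known, and all 49 were found among the 33456 genes of the gene lists. The data are droplet single cell RNA-seq libraries of raw UMI counts, where unique molecular identifiers (UMIs) count the RNA molecules captured and a barcode stands for the cell of a droplet. The 2 control libraries came from naïve C57BL/6 mice and the 2 injury libraries from C57BL/6 mice 3 days after sciatic nerve crush, all 8 to 12 weeks old. The labels name L4 ganglia, whereas the methods name L4 and L5. Within each condition 1 library carries the number 2 in its label, and the library without a number is called replicate 1. The replicates are described as biologically independent, and the cells of each batch were pooled from 5 mice. Live cells were sorted on the DNA dye Hoechst before loading, and limits of that gate on DNA content, which could set the share of cycling cells, are not given in the sources used here.

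In S phase the MCM helicase, loaded at origins by CDC6, unwinds DNA together with CDC45 and GINS, PCNA clamps the polymerases to the template, and ribonucleotide reductase and thymidylate synthase supply nucleotides. In G2 and mitosis cyclin A2 and the B cyclins activate CDK1, condensin and topoisomerase II compact and untangle the chromosomes, kinetochore and spindle proteins align them, and the anaphase-promoting complex with CDC20 and UBE2C ends mitosis. The S genes were *Mcm2*, *Mcm3*, *Mcm4*, *Mcm5*, *Mcm6*, *Cdc6*, *Cdc45*, *Gins2*, *Pcna* and *Fen1* of the replication fork and its origins, *Rrm1*, *Rrm2* and *Tyms* of nucleotide supply, *Uhrf1*, *Hells*, *Chaf1b* and *Slbp* of chromatin and histone supply, and *Ung*, *Clspn* and *Dtl* of repair and checkpoints. The G2M genes were *Cdk1*, *Ccna2*, *Ccnb1*, *Ccnb2* and *Cks2* of the mitotic kinase, *Top2a*, *Smc4*, *Hmgb2* and *Mki67* of chromosomes, *Cenpa*, *Cenpe*, *Cenpf*, *Nuf2*, *Ndc80* and *Bub1* of centromere, kinetochore and checkpoint, *Birc5*, *Cdca8*, *Aurkb* and *Aurka* of the passenger complex and the Aurora kinases, *Nusap1*, *Tpx2*, *Tacc3*, *Kif11* and *Kif23* of the spindle, *Ube2c* and *Cdc20* of the anaphase-promoting complex, *Anln* and *Ect2* of cytokinesis, and *Cdca3*. Transcription of many S genes is known to be driven by E2F factors at the entry into S phase. That of many G2M genes is known to be controlled by the DREAM, B-MYB and FOXM1 complexes, which bind the cell cycle homology region (CHR). Adult neurons do not divide, whereas macrophages can divide within tissues and immature blood cells divide in the bone marrow.

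The promoter windows (RefSeq, GRCm38.p6) span 250 bases before to 50 bases after a gene's start and were available for 18 S and 25 G2M genes. *Mcm4*, *Gins2*, *Ccna2*, *Aurkb*, *Tpx2* and *Smc4* had no entry. E2F letters (TTTCCCGC, TTTGGCGC, TTTCGCGC or TTTGCCGC, on both strands) were in the windows of 8 of 18 S genes (44.4%), of 1 of 25 G2M genes (4.0%, *Cdk1*), and of 2.60% of the 27025 genes in the table. CHR letters (TTTGAA or TTCGAA, on both strands) were in the windows of 3 of 18 S genes (16.7%), of 18 of 25 G2M genes (72.0%), and of 21.7% of all genes. The CCAAT box, searched as CCAAT on both strands, was in the windows of 66.7% of the S genes, 76.0% of the G2M genes and 41.1% of all genes. E2F letters can overlap on opposite strands, as in *Mcm6*, TTCGAA reads the same on both strands, and a match is a description of the letters, not of a bound site.

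Shown here are the promoters of the S genes and of the G2M genes with the most UMIs among those with a match for their phase, each as 280 bases (250 before the start and 30 after) on the gene's strand. Capitals mark E2F letters in *Mcm6* and *Mcm3*, which code for subunits of the MCM helicase, and CHR letters in *Hmgb2*, a chromatin protein, and *Ube2c*, the ubiquitin-conjugating enzyme of the anaphase-promoting complex. *Mcm6* has 3 matches, of which the first 2 overlap, *Mcm3* has 2, of which 1 lies within the printed stretch, *Hmgb2* has 2 and *Ube2c* 1. The windows are chr1:128359676-128359955 (minus strand) for *Mcm6*, chr1:20820283-20820562 (minus strand) for *Mcm3*, chr8:57511593-57511872 (plus strand) for *Hmgb2* and chr2:164769679-164769958 (plus strand) for *Ube2c*.
Mcm6: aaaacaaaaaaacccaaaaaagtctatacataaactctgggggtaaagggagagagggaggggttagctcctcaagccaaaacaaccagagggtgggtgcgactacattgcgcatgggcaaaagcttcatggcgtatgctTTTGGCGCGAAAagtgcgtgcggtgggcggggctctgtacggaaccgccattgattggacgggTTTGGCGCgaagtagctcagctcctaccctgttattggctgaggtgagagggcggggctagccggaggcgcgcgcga
Mcm3: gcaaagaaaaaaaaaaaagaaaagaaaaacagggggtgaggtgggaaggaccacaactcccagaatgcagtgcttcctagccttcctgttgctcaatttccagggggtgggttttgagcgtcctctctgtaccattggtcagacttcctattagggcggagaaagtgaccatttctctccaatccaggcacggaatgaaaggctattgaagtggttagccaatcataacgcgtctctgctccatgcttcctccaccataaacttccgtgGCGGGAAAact
Hmgb2: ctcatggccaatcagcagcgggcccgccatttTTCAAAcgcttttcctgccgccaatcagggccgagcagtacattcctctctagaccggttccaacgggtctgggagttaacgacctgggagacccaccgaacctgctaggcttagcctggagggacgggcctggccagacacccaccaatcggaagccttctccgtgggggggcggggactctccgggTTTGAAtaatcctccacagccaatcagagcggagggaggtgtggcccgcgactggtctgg
Ube2c: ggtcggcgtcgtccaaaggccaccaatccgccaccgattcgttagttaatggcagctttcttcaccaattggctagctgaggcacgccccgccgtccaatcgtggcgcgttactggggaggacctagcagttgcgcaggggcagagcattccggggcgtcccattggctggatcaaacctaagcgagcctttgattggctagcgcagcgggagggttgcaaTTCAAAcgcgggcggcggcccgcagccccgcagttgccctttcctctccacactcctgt

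**Figure D1:**
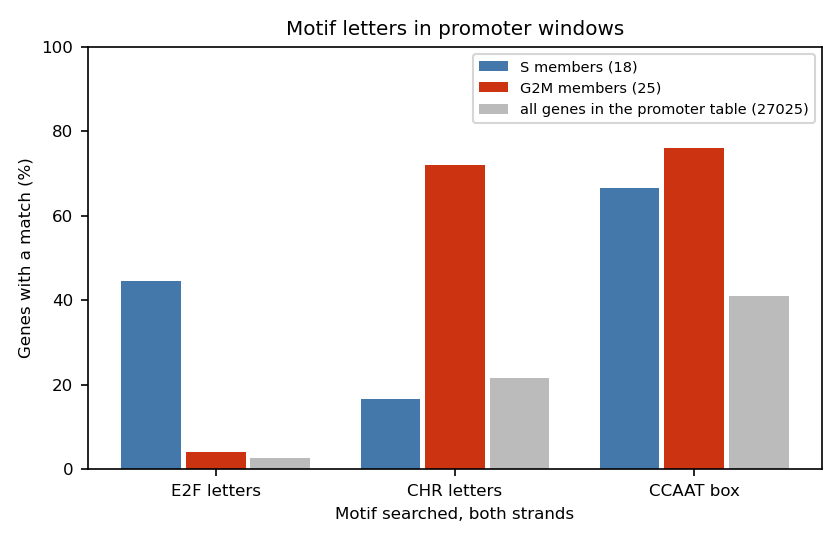
Share of genes (%, y axis) whose promoter window holds each motif (x axis) on either strand, for 18 S genes, 25 G2M genes and all 27025 genes of the table. E2F letters stand at 44.4% in the S genes against 4.0% in the G2M genes, and CHR letters at 16.7% against 72.0%.

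The 49 genes were rare transcripts. After the study's limits on UMIs, genes and mitochondrial share, 6095 of 6975 barcodes remained, that is 1301 and 1341 control cells (replicates 1 and 2) and 2377 and 1076 injury cells. Their median UMI counts were 2775 and 4054 for control and 3110 and 4845 for injury, so the libraries with the number 2 were the deeper ones in both conditions. The S genes held 11436 UMIs and the G2M genes 21857, together 0.131% of all UMIs. *Hmgb2* alone gave 7443 UMIs, 34.1% of those of the G2M genes. Among the S genes the totals ran from 59 UMIs (*Dtl*) to 2723 (*Slbp*, which binds the stem-loop of histone mRNAs), with a median of 404, and among the other G2M genes from 65 (*Ect2*) upward, with a median of 445 over all 29.

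These UMIs were concentrated in few cells. Of the 6095 cells, 1795 had no UMI of any of the 49 genes and 1545 (25.3%) had 3 or more UMIs, while 1045 cells had exactly 2 and 557 exactly 3. A count of 3 UMIs is reached more easily in a deep cell, so shares are also given as the share expected after thinning every cell to 1000 UMIs. A stricter class, chosen after the data were seen, holds the cells in which 5 or more different genes of the 49 were detected. These were 532 cells (8.73%), and 212 cells with exactly 4 such genes lay just under the limit and 82 with exactly 5 just above it. They held 76.8% of all UMIs of the 49 genes, 84.3% of the G2M UMIs and 62.4% of the S UMIs. The highest cell had 264 UMIs, and the most genes of the list found in 1 cell were 40.

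Single genes differed in how far they kept to these cells, which the genes themselves define, so the shares are a description. The 532 cells held a median of 69.4% of an S gene's UMIs, from 43.6% for *Pcna* to 94.9% for *Dtl*, a substrate receptor of a ubiquitin ligase. They held a median of 93.6% of a G2M gene's UMIs, from 27.8% for *Anln*, the cleavage furrow scaffold anillin, to 99.1% for *Ccna2*, cyclin A2. *Anln* thus stood apart from the other G2M genes, with most of its UMIs outside these cells. In 45 of the 49 genes at least 50% of the UMIs lay in them, and in 23 genes at least 90%.

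Cells were assigned to types by a gate on marker genes that used none of the 49, such as *Fabp7* and *Kcnj10* for satellite glial cells (SGC), *Mag* and *Prx* for myelinating Schwann cells, *C1qa* and *Csf1r* for macrophages, *S100a8* and *Elane* for the neutrophil lineage and *Hbb-bs* and *Klf1* for erythroid cells. A gate cannot tell droplets with RNA of other cells from pure ones, and 277 cells with markers of several types were set aside as mixed.

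Pooled over libraries, the summed level was highest in types of blood cells and lowest in fibroblasts, glia and neurons. In these pools the 49 genes summed to 19847 CPM (UMIs scaled to a common library total) in 46 erythroid cells, 11824 in 43 B cells, 6093 in 129 cells of the neutrophil lineage, 5875 in 68 T and NK cells, 5502 in 80 monocytes, 2052 in 928 macrophages and 1596 in 211 dendritic cells. The vascular types followed, with 829 CPM in 159 pericytes, 641 in 314 smooth muscle cells and 579 in 418 endothelial cells. The lowest sums were 408 CPM in 133 *Scn7a* glia, 365 in 1079 fibroblasts, 352 in 1346 SGC, 276 in 260 myelinating Schwann cells and 231 in 70 neurons. Single libraries of several types overlapped, since macrophages had 558 and 1368 CPM in the controls and 2036 and 3419 after injury. B cells had 1763 and 19922 CPM in the controls, from 24 and 4 cells, and 9584 and 27073 after injury, from 10 and 5 cells. In control replicate 1 they were thus level with dendritic cells (1782 CPM). Pericytes had 559 and 1746 CPM in the controls and 421 and 2834 after injury, and smooth muscle cells 368, 991, 338 and 2673 CPM in the same order. The values of 1746 and 2834 CPM rest on 12 and 6 pericytes, of which 1 and 2 cells held most of the UMIs. In smooth muscle cells of injury replicate 2, 1 of 20 cells held 95.2% of the G2M UMIs. In control replicate 1 macrophages were thus level with pericytes and within the range of endothelial cells, from 419 to 757 CPM.

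**Figure D2:**
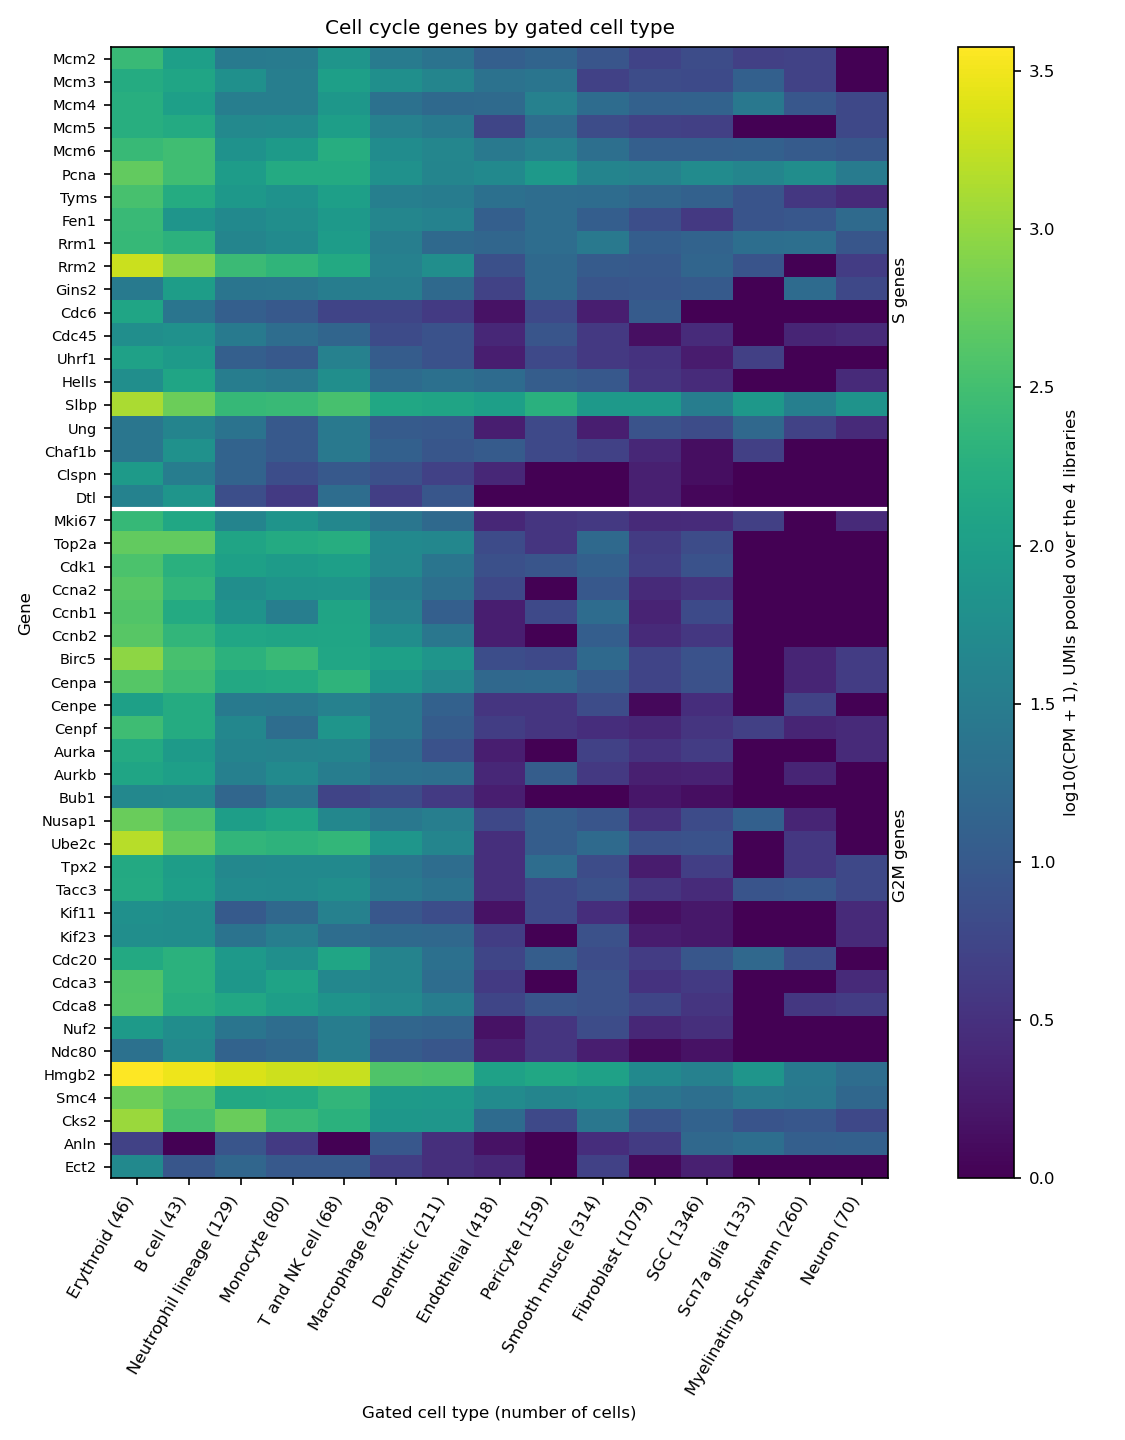
Level of each of the 49 genes (rows, S above and G2M below the white line) in each gated cell type (columns, with the number of cells), as log10(CPM + 1) of UMIs pooled over the 4 libraries. The columns from erythroid to dendritic cells are bright for nearly all genes, whereas in the types from endothelial cells to neurons *Slbp*, *Pcna*, *Hmgb2* and *Smc4* stand out among dim rows.

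The share of cells with 3 or more UMIs fell far on thinning in the resident types, and in proportion it fell least in erythroid and B cells. It was 40.0% in neurons, which do not divide and have the highest median depth of 9266 UMIs, and 0.11% after thinning. The unthinned share is therefore not read as a share of dividing cells, and what makes it up was not tested. In endothelial cells (median 4292 UMIs) the share was 42.6% as counted and 2.14% thinned. In SGC (median 3956 UMIs) it was 10.0% and 0.97%, and in fibroblasts (median 4088 UMIs) 15.2% and 0.85%. It was 4.23% and 0.37% in myelinating Schwann cells, 9.02% and 1.5% in *Scn7a* glia, 12.7% and 1.54% in smooth muscle cells, and 13.2% and 3.78% in pericytes. The thinned shares were 11.5% in dendritic cells, 14.3% in macrophages, 35.1% in B cells, 37.4% in T and NK cells, 37.7% in monocytes, 57.0% in the neutrophil lineage and 97.8% in erythroid cells. Without *Hmgb2*, the most abundant gene of the list, the thinned share was 43.4% in the neutrophil lineage, 21.6% in T and NK cells, 12.4% in macrophages and 97.7% in erythroid cells.

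**Figure D3:**
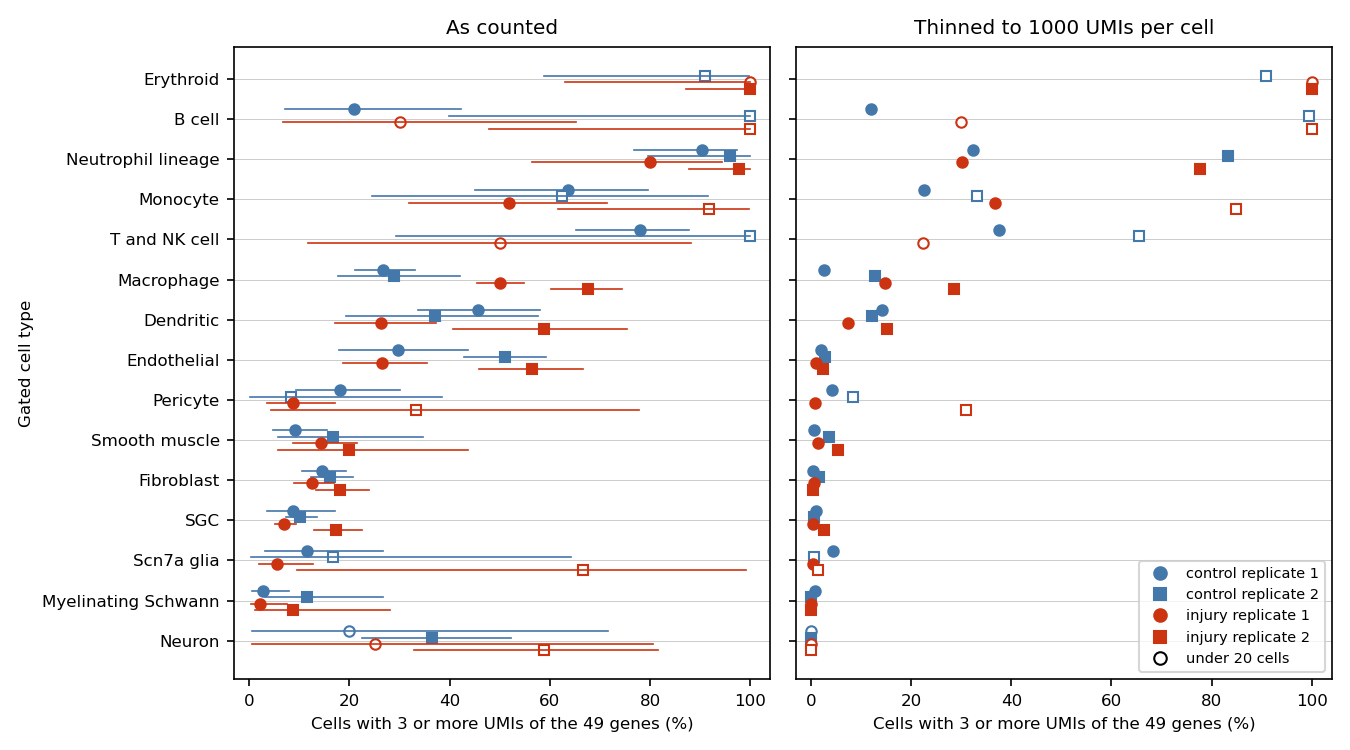
Share of cells with 3 or more UMIs of the 49 genes (%, x axis) for each gated type (y axis) and library, as counted with exact 95% binomial intervals (left) and thinned to 1000 UMIs per cell (right). Colours mark the condition, shapes the replicate number, and open symbols stand for under 20 cells. Thinning takes neurons from 40.0% to 0.11% over all libraries and leaves erythroid cells at 97.8%.

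Ki-67 (*Mki67*), topoisomerase II alpha (*Top2a*) and *Cdk1*, the mitotic kinase, had no UMI in any myelinating Schwann cell (0 of 260, which allows a share of cells with a UMI of up to 1.15% at a median depth of 2066.5 UMIs). *Mki67* was detected in 6 of 1346 SGC (0.45%), 6 of 1079 fibroblasts (0.56%), 2 of 418 endothelial cells (0.48%) and 1 of 70 neurons (1.43%). It was detected in 57 of 928 macrophages (6.14%), 12 of 80 monocytes (15%), 20 of 129 cells of the neutrophil lineage (15.5%) and 31 of 46 erythroid cells (67.4%). *Top2a* and *Cdk1* also had no UMI in *Scn7a* glia (0 of 133 cells with a UMI, which allows up to 2.26%, at a median depth of 1764 UMIs) and neurons (0 of 70, up to 4.29%), and *Mcm5*, a subunit of the MCM helicase, had none in *Scn7a* glia and myelinating Schwann cells. These limits bound the share of cells with a UMI, not of cells that express the gene. *Pcna* differed from these genes in that it was detected in every type but the 2 mast cells. After thinning, *Pcna* was found in 4.69% of SGC, 6.30% of myelinating Schwann cells, 2.73% of neurons, 5.07% of macrophages and 33.6% of erythroid cells. Its pooled level was 51.8 CPM in SGC and 64.1 CPM in macrophages, while that of *Top2a* was 5.9 CPM and 48.5 CPM.

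Each type was then compared with SGC, the cells the study asks about, in 1 edgeR quasi-likelihood fit to UMIs summed per library and type, with the library as a block. Calls needed an adjusted p (Benjamini-Hochberg) under 0.05 together with an absolute log2 fold change of at least 2. Of the 49 genes, 35 (12 S and 23 G2M) passed the filter on low counts, which sums with many cycling cells pass more easily. In macrophages 29 of them were higher (7 S and 22 G2M), where 12.6% of the 6948 genes tested were. In the neutrophil lineage 32 were higher (9 S and 23 G2M, against 11.8% of all genes), in monocytes 28 (9 S and 19 G2M, against 11%) and in dendritic cells 28 (8 S and 20 G2M, against 13.4%). None was lower in these types, where 16%, 20.6%, 18.5% and 18.2% of all genes were. Monocytes, pericytes and *Scn7a* glia had enough cells in 2 libraries only. The fit takes the control and injury libraries of a type together, so a call does not tell the conditions apart. The summed G2M level in macrophages was 278 and 652 CPM in the controls and 1465 and 2314 CPM after injury. In SGC it was 138 and 79.9 CPM in the controls and 76.2 and 444 CPM after injury. Without injury replicate 1, 18 of the 26 genes of the list then tested were higher in macrophages, where 802 of 5918 genes were.

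The sizes of these differences, as log2 fold change ± SE with edgeR's adjusted p, were largest in the neutrophil lineage for *Hmgb2* (6.42 ± 0.44, adjusted p = 2e-12), and *Mki67* was higher by 4.88 ± 0.69 there, by 5.61 ± 0.82 in monocytes, by 3.54 ± 0.75 in dendritic cells and by 3.53 ± 0.59 in macrophages (adjusted p = 7.8e-08, 2.5e-07, 7e-05 and 1.4e-06). *Top2a* was higher by 3.12 ± 0.72 and *Mcm5* by 3.18 ± 0.45 in macrophages (adjusted p = 0.00073 and 3.5e-08). Of the S genes, *Pcna*, *Rrm1* (the large subunit of ribonucleotide reductase) and *Mcm4* passed the call in none of these types. *Pcna* had a log2 fold change of 0.54 ± 0.21 in macrophages, 1.13 ± 0.29 in the neutrophil lineage, 1.44 ± 0.37 in monocytes and -0.15 ± 0.30 in dendritic cells. The first 3 of these had an adjusted p under 0.05 (0.021, 0.00083 and 0.0013) and stayed below the fold limit. *Pcna* was also the gene of the list with the most UMIs in SGC (300 UMIs).

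Resident types differed less from SGC. The gene *Hells*, a chromatin remodeller, was higher in endothelial cells (3.00 ± 0.69, adjusted p = 0.00029, against 11.1% of all genes called higher) and smooth muscle cells (2.48 ± 0.92, adjusted p = 0.027, against 10.3%), and *Slbp* in pericytes (2.21 ± 0.33, adjusted p = 5.5e-07, against 8.39%). No gene of the list was called in fibroblasts (10.5% of all genes called higher), myelinating Schwann cells (3.79%) or *Scn7a* glia (2.01%). At an unadjusted p under 0.05, 1 gene was higher in each of these 3 types and 1, 2 and 0 were lower. Of all 6948 genes, 3762, 2350 and 1324 reached that limit in either direction, and 2005, 877 and 552 of these were higher. DESeq2 called 0, 1 and 0 higher, where 10.0%, 4.15% and 2.84% of all genes were. It called 0, 1 and 0 lower, where 6.74%, 4.53% and 0.921% of all genes were. In fibroblasts *Slbp* had a log2 fold change of 1.30 ± 0.20 (adjusted p = 4.3e-07), below the fold limit. With sums of at least 10 cells in place of 20, so that small types enter, 40 genes of the list were tested. All 40 were higher in erythroid cells (6.99% of all genes), 34 in B cells (6.83%) and 0 in neurons (8.81%). At that limit the erythroid cells came from control replicate 2 and injury replicate 2 and the B cells from control replicate 1 and injury replicate 1. In control replicate 1, 1 of 24 B cells held 33 of 39 S UMIs and 10 of 32 G2M UMIs. In injury replicate 1, 3 of 10 B cells held 110 of 115 S UMIs and 299 of 301 G2M UMIs.

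The balance of S to G2M UMIs also differed between pooled types, though not in every library. As the log2 ratio of summed S to summed G2M UMIs over all libraries, it was 0.97 in neurons, 0.75 in fibroblasts and pericytes, 0.68 in myelinating Schwann cells, 0.49 in *Scn7a* glia, 0.29 in endothelial cells and 0.13 in SGC, where S genes gave more UMIs. It was -0.44 in smooth muscle cells, -0.98 in dendritic cells, -1.12 in erythroid cells, -1.13 in macrophages, -1.26 in B cells, -1.33 in T and NK cells, -1.91 in monocytes and -2.05 in the neutrophil lineage, where G2M genes gave more. *Hmgb2* alone gave 1497 of the 3112 G2M UMIs in the neutrophil lineage and 675 of 1445 in monocytes. It gave 1679 of 6127 in macrophages and 914 of 3301 in erythroid cells. Of the S UMIs *Slbp* gave 41 of 94 in neurons, 71 of 200 in pericytes, 383 of 1082 in fibroblasts and 204 of 634 in endothelial cells. It gave 21 of 63 in *Scn7a* glia, 25 of 123 in myelinating Schwann cells and 186 of 1067 in SGC. By library the ratio was 0.87 and 1.12 in control SGC and 0.99 and -0.88 after injury, 1.06 and 0.21 in control smooth muscle cells and 0.68 and -2.71 after injury, and 0.33 and 0.76 in control endothelial cells and 0.62 and -0.36 after injury. In these 3 types the ratio was below 0 in injury replicate 2 and above 0 in the other 3 libraries, and without injury replicate 2 the pooled ratio was 1.04 in SGC and 0.69 in smooth muscle cells. In SGC it was also below 0 without injury replicate 1 (-0.14) or control replicate 2 (-0.16). In pericytes the ratio was 1.39 and -1.03 in the controls, from 61 and 12 cells, and 0.91 and 1.85 after injury, from 80 and 6 cells. The ratio was above 0 in both macrophage controls and in B cells of control replicate 1 (0.29). Within the cells that had 5 or more of the genes, the pooled ratio was below 0 in SGC (-1.23), endothelial cells (-0.91), fibroblasts (-0.34) and smooth muscle cells (-1.68) as well, and in the remaining cells of these types it was above 0 (0.94, 0.71, 1.07 and 0.75). In each type most G2M UMIs of these cells came from 1 library. In injury replicate 2 these cells held 126 S and 505 G2M UMIs in SGC and 33 and 125 in endothelial cells. The smooth muscle cells of this class held 19 and 218 there, and the fibroblasts of injury replicate 1 held 45 and 135. In the other libraries with such cells S UMIs were equal or more, except in endothelial cells of control replicate 2 (53 and 56). By single cells, however, most had more S than G2M UMIs, namely 13 of 18 SGC, 13 of 20 endothelial cells, 7 of 11 fibroblasts and 4 of 6 smooth muscle cells, beside 5, 4, 3 and 1 with more G2M UMIs. In macrophages with fewer than 5 of the genes the ratio was -0.15.

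**Figure D4:**
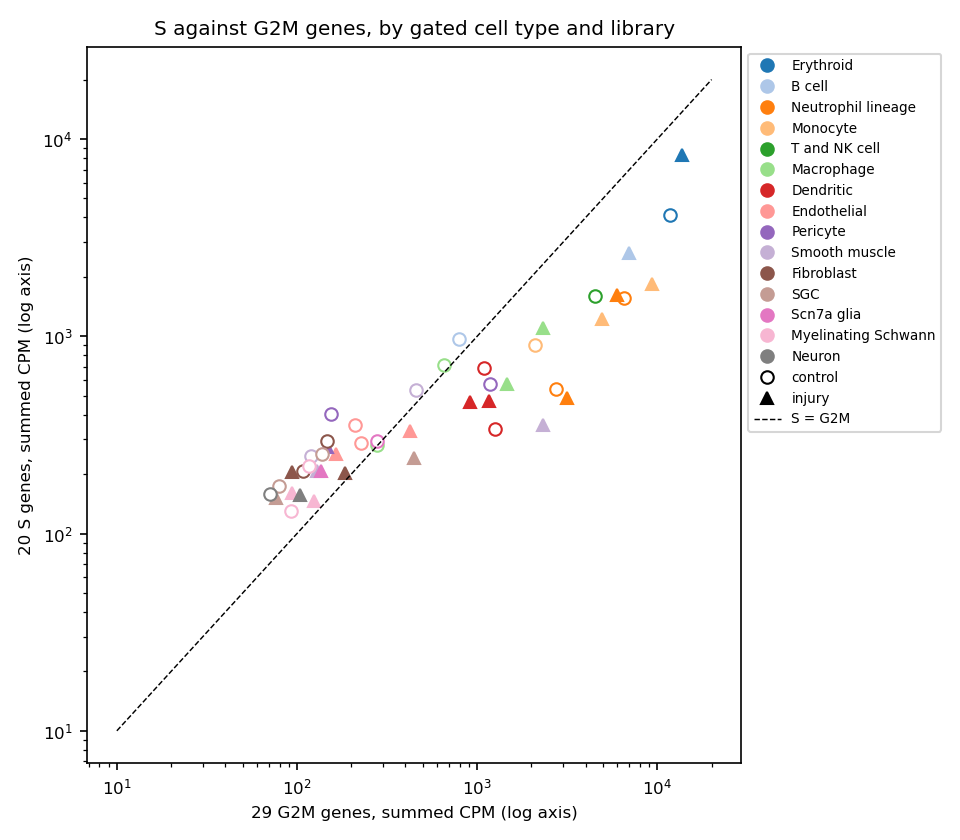
Summed CPM of the 20 S genes (y axis) against that of the 29 G2M genes (x axis), both on log axes, for each gated type and library with at least 10 cells. Circles are control and triangles injury libraries, colours mark the type, and the dashed line is equality. Most points of blood types lie below the line, but both control macrophage points and the B cells of control replicate 1 lie just above it, at log2 ratios of 0.01, 0.13 and 0.29. Fibroblasts and myelinating Schwann cells lie above it in all 4 libraries.

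Whether the genes changed after crush was first asked over all cells. The summed level of the 49 genes was 1024 and 895 CPM for control and 1085 and 2314 CPM for injury, so injury replicate 2 was far above the other 3. Its log2 S to G2M ratio was -1.05, beside -1.10 in injury replicate 1 and -0.65 and -0.61 in the controls. In sums over all cells, a change in the number of cells of a type and in the RNA per cell cannot be told apart, and injury replicate 2 held 27 erythroid cells beside 0, 11 and 8 in control replicates 1 and 2 and injury replicate 1. Their part in the result was not tested. The share of cells with 3 or more UMIs was 6.45 percentage points higher in the injury libraries, and without injury replicate 2 it was lower by 3.98 points. edgeR called 0 of the 49 genes (0% of 13165 genes) and DESeq2 called 0 (0.0456%). At an unadjusted p under 0.05, 20 of the 49 were higher, where 0.744% of all genes were. In 29 of the 49 (23 G2M and 6 S genes) both injury libraries were above both controls, where 7.36% of all genes were. The median log2 fold change was 1.13 over the 49 genes and -0.02 over all genes. Without injury replicate 2 these medians were 0.51 and -0.05. *Birc5*, coding for survivin of the chromosomal passenger complex, had a log2 fold change of 1.64 ± 0.37, *Ube2c* 1.30 ± 0.33, *Hmgb2* 0.64 ± 0.52, *Slbp* 0.38 ± 0.43 and *Pcna* 0.16 ± 0.42, each with an adjusted p of 1.00.

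In macrophages the G2M genes were more abundant in both injury libraries than in both controls. Gated macrophages numbered 228 and 59 in the controls and 465 and 176 after injury (replicates 1 and 2 in each). Their median UMI counts were 2938, 3172, 4731 and 4842, so macrophages of the injury libraries also had more UMIs per cell. Over all cells, injury replicate 1 had a lower median (3110) than control replicate 2 (4054). Whether sequencing depth or RNA per cell made the difference in macrophages was not tested. The summed G2M level was 278 and 652 CPM in the controls and 1465 and 2314 CPM after injury, groups that do not overlap. The summed S level was 280 and 715 CPM in the controls and 572 and 1105 CPM after injury, groups that do overlap. The log2 S to G2M ratio was 0.07 ± 0.09 in the controls and -1.21 ± 0.21 after injury (SD, n = 2 libraries each).

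The share of macrophages with 3 or more UMIs was 26.8% (exact 95% binomial interval 21.1 to 33.0) and 28.8% (17.8 to 42.1) in the controls and 50.1% (45.5 to 54.7) and 67.6% (60.2 to 74.5) after injury. These intervals cover counting error only. Thinned to 1000 UMIs, the shares were 2.54% and 12.9% in the controls and 14.9% and 28.6% after injury, which still do not overlap but come close between control replicate 2 and injury replicate 1. Cells with 5 or more of the genes numbered 10 of 228 and 10 of 59 in the controls and 120 of 465 and 73 of 176 after injury. Of the 20 such control macrophages, 10 had more S than G2M UMIs and 7 more G2M UMIs, and of the 193 after injury, 88 and 100.

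By gene, *Ube2c* had 1.33 and 9.67 CPM in the control macrophages and 84.2 and 118 CPM after injury, that is 3 UMIs in the controls and 318 after injury. The ratio of the pooled levels was 29.9 with a 95% counting interval from 10.1 to 146. *Ccnb2*, cyclin B2, had 0 and 4.83 CPM in the controls and 66.7 and 81.0 CPM after injury, a ratio of 67.7 that rests on 1 control UMI and has an interval from 12.0 to 2685. *Cenpa*, the histone variant of centromeres, had 13.3 and 19.3 CPM in the controls and 90.8 and 106 CPM after injury, a ratio of 6.51 with an interval from 3.82 to 12.0. In each of these genes both injury libraries were well above both controls.

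The kinetochore gene *Cenpf* had no UMI in control macrophages and 73 and 33 UMIs after injury, at least 9.97-fold higher when the controls are set to a floor of 3 UMIs over the group. *Bub1*, a kinase of the spindle checkpoint, and *Ect2*, an exchange factor of cytokinesis, were the other genes at 0 in the controls, with bounds of at least 2.26-fold and 1.41-fold. A further 18 genes had 1 to 3 UMIs in the controls. *Mki67* had 2.66 and 9.67 CPM in the controls and 31.9 and 26.3 CPM after injury, *Top2a* 6.66 and 19.3 CPM beside 45.4 and 95.7 CPM, and *Birc5* 1.33 and 24.2 CPM beside 119 and 179 CPM. *Hmgb2* rested on more reads, with 156 and 227 CPM in the controls and 374 and 631 CPM after injury. *Cdk1* had 3.99 and 43.5 CPM in the controls and 44.2 and 85.2 CPM after injury, so that control replicate 2 and injury replicate 1 were nearly level.

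Among the S genes, most helicase subunits were above both controls in both injury libraries, with *Mcm5* at 12.0 and 24.2 CPM in the controls and 38.0 and 55.7 CPM after injury, *Mcm6* at 10.6 and 38.7 CPM beside 58.1 and 76.7 CPM, and *Mcm3* at 30.6 and 43.5 CPM beside 57.2 and 92.5 CPM. *Mcm2* overlapped, with 5.32 and 53.2 CPM beside 31.5 and 41.0 CPM. *Slbp* (94.5 and 179 CPM beside 103 and 237 CPM) and *Pcna* (42.6 and 121 CPM beside 46.6 and 114 CPM) overlapped between conditions. *Rrm2*, the small subunit of ribonucleotide reductase, had 0 UMIs in control replicate 1 and 53.2 CPM in control replicate 2, beside 25.4 and 90.4 CPM after injury. Control replicate 2, with 59 macrophages, was thus the higher control for most of the genes named.

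**Figure D5:**
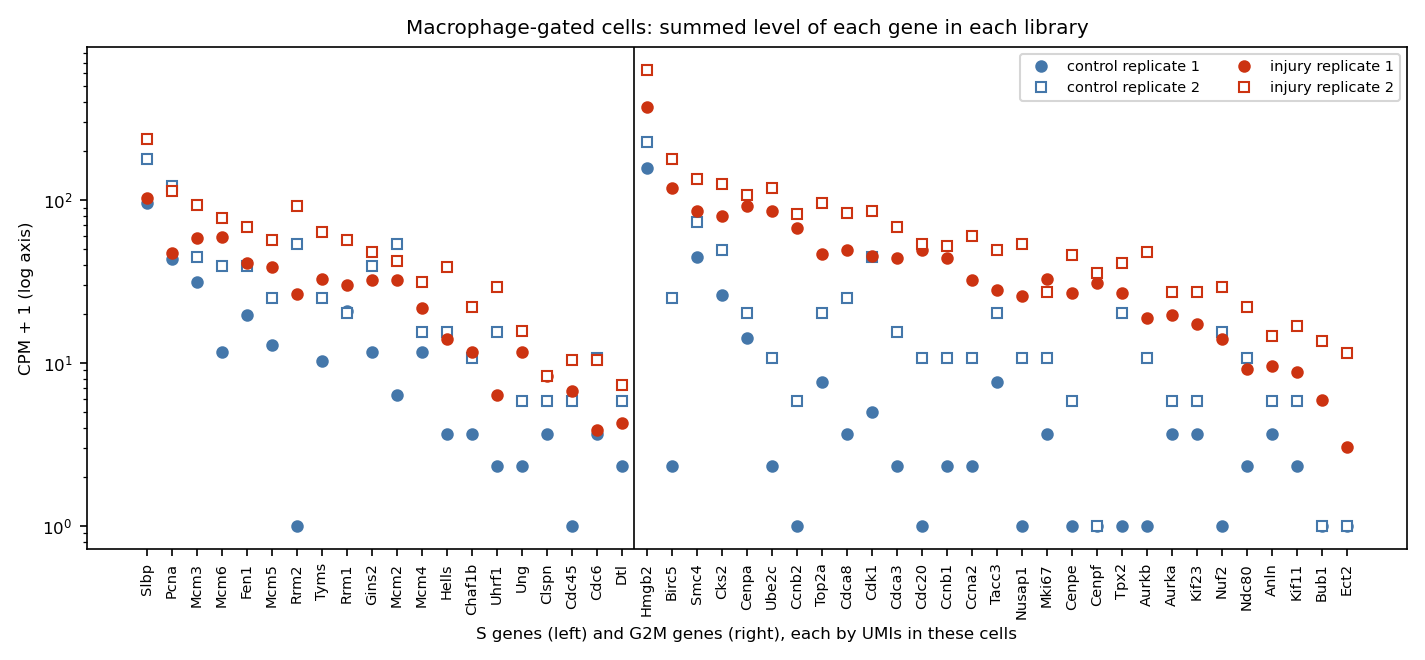
Level of each of the 49 genes in gated macrophages (y axis, CPM + 1 on a log axis) in each of the 4 libraries, with S genes at the left and G2M genes at the right of the line, each ordered by UMIs. In 27 of 29 G2M genes and 11 of 20 S genes both injury libraries lie above both controls.

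In 38 of the 49 genes (27 of 29 G2M genes and 11 of 20 S genes) both injury libraries were above both controls in macrophages, where this was so for 23.1% of all genes with a UMI. In none of the 49 were both below, where 11.1% of all genes were. The edgeR test called 0 of the 38 genes of the list that passed the filter on low counts (0% of the 6509 genes tested). A gene high in the injury libraries alone can pass that filter, which can raise counts and medians over the 38 genes. The smallest adjusted p was 0.0527, for *Ube2c* (log2 fold change 4.71 ± 0.58), *Ccnb2* (5.78 ± 0.75) and *Cenpa* (2.52 ± 0.34). *Cenpf* followed with an adjusted p of 0.0907, and its fitted fold change is no bound because the controls had no UMI. At an unadjusted p under 0.05, 26 of the genes were higher and none lower, where 4.01% of all genes tested were higher. DESeq2 called *Ube2c*, *Ccnb2* and *Cenpa* (0.0768% of all genes), as did edgeR with RLE size factors (0.0615%), and edgeR on all genes without the filter called 17 of the 49, all of them G2M genes (0.33% of all genes). Leaving out control replicate 1 or 2 gave 4 and 26 calls, where 0.158% and 1.16% of all genes were called higher, and leaving out injury replicate 1 or 2 gave 18 and 13, where 0.856% and 0.364% were. In each of these fits 1 condition has a lone library, which is assumed to vary like the 2 of the other condition.

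The median log2 fold change in macrophages was 0.91 over the 14 S genes tested, 2.70 over the 24 G2M genes and -0.02 over all genes. These medians leave out the genes of the list that the filter removed. With no filter on low counts the median was 1.99 over the 49 genes and 0.08 over all genes. *Mki67* had 2.58 ± 0.62, *Top2a* 2.58 ± 0.57, *Birc5* 4.20 ± 0.78, *Hmgb2* 1.24 ± 0.31, *Cdk1* 1.90 ± 0.89, *Mcm5* 1.40 ± 0.44, *Slbp* 0.19 ± 0.43 and *Pcna* -0.06 ± 0.58. Their adjusted p values lay between 0.211 and 0.999. The sign for *Pcna* was positive without control replicate 2 or injury replicate 1.

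Of the marker lists of other blood cells, that of dendritic cells was abundant in the gated macrophages and the others were low. The summed level of the 10 macrophage markers was 26446 and 24610 CPM in the controls and 26018 and 25145 CPM after injury. The 4 dendritic markers, all detected, summed to 71386 and 54266 CPM in the controls and 23519 and 12500 CPM after injury, so that both injury libraries were below both controls. Nearly all of this came from *Cd74* and *H2-Ab1*, genes of antigen presentation that macrophages also express, whereas *Cd209a* had 8 and 1 UMIs in the controls and 8 and 2 after injury, and *Flt3* 2 and 1 beside 5 and 0. Their part in the result was not tested. The 4 monocyte markers, all detected, summed to 383 and 440 CPM in the controls and 328 and 288 CPM after injury. Of the 6 neutrophil markers 5 were detected, with *Cxcr2* at 0, and summed to 144 and 77.3 CPM in the controls and 47.0 and 234 CPM after injury. The erythroid markers, among which *Kel*, *Klf1* and *Rhag* were at 0, summed to 16.0 and 72.5 CPM in the controls and 22.5 and 205 CPM after injury. For the neutrophil and erythroid markers injury replicate 2 was above both controls and injury replicate 1 was not, and the part of such RNA in the result was not tested.

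Within macrophages several of the genes, of both phases, were often found in the same cells. Of the 57 macrophages with a UMI of *Mki67*, 86.0% also had *Birc5*, 63.2% *Top2a* and 64.9% *Cdk1*, where these genes were found in 11.7%, 8.62% and 10.7% of all macrophages. *Pcna* was found in 38.6% of the 57 cells and in 19.0% of all macrophages, and of the 176 macrophages with *Pcna*, 12.5% had *Mki67*. The S genes *Rrm2* and *Mcm5* were found in 42.1% and 31.6% of the 57 cells, beside 5.71% and 10.7% of all macrophages. Of the 453 macrophages with the G2M gene *Hmgb2*, 11.5% had *Mki67*. These shares are a description, since deep cells show more of any gene.

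In SGC the libraries overlapped between conditions for most of the genes. The gate held 80 and 407 SGC in the controls and 600 and 259 after injury. The share with 3 or more UMIs was 8.75% and 10.1% in the controls and 7.0% and 17.4% after injury, with injury replicate 2 alone above the controls, and thinned to 1000 UMIs it was 0.94%, 0.63%, 0.45% and 2.73%. S genes gave 55 and 335 UMIs in the controls and 342 and 335 after injury, while G2M genes gave 30 and 154 UMIs in the controls and 172 and 616 after injury. The erythroid markers in SGC summed to 13.8 and 52.4 CPM in the controls and 13.7 and 149 CPM after injury, highest in the same library, and their part in the result was not tested. Of the 616 UMIs, 505 (82.0%) came from the 9 SGC of injury replicate 2 that had 5 or more of the genes.

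By gene, the SGC levels overlapped for *Pcna*, *Slbp* and *Hmgb2*, whereas for *Anln* both injury libraries were below both controls. *Pcna* had 78.3 and 60.2 CPM in the controls and 35.9 and 62.0 CPM after injury, *Slbp* 50.6 and 31.1 CPM beside 22.6 and 46.1 CPM, *Hmgb2* 50.6 and 20.7 CPM beside 20.4 and 82.2 CPM, and *Anln* 27.6 and 18.2 CPM beside 10.6 and 17.3 CPM. edgeR called 0 of the 15 genes of the list tested (0% of 8912 genes), with 0 at an unadjusted p under 0.05 (0.561% of all genes higher), and DESeq2 called 0 (0.0112%). The genes tested were 10 S and 5 G2M genes, so most G2M genes were not tested. With no filter on low counts edgeR called 0 of 48 genes. At an unadjusted p under 0.05, 16 of the 48 were then higher, where 136 of 15247 genes were. The median log2 fold change of that fit was 1.65 over the 48 genes and 0.03 over all genes. The log2 fold changes were -0.38 ± 0.34 for *Pcna*, -0.04 ± 0.43 for *Slbp*, 0.78 ± 0.64 for *Rrm2*, 0.53 ± 0.52 for *Rrm1*, 0.17 ± 0.41 for *Mcm4*, 0.91 ± 0.83 for *Hmgb2*, 0.57 ± 0.41 for *Smc4*, -0.52 ± 0.43 for *Anln* and 1.64 ± 0.99 for *Cks2*. Both injury libraries were above both controls in 9 of the 48 genes detected, where 11.7% of all genes were so. They were below both controls in 2 of the 48, where 12.5% of all genes were. Without injury replicate 1, *Ube2c*, *Top2a*, *Birc5* and *Ccnb1* were called higher in SGC, where 0.087% of all genes were. That comparison rests on injury replicate 2 alone, a lone library assumed to vary like the controls.

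In all, 18 SGC had 5 or more of the genes, namely 0 of 80 and 5 of 407 in the controls and 4 of 600 and 9 of 259 after injury. The 7 SGC markers summed to 128 UMIs per 10000 in these cells and to 151 in the other SGC, and several other marker lists were found in them. Of the 18 cells, 14 (77.8%) had 2 or more UMIs of the fibroblast markers, beside 36.1% of the other SGC, 8 (44.4%) of the myelinating Schwann markers, beside 61.3%, and 3 (16.7%) of the neuron markers, beside 9.56%. For the blood cells 2 (11.1%) had 2 or more UMIs of the dendritic and 2 of the erythroid markers, beside 3.24% and 3.92%, and 1 (5.56%) each of the macrophage, monocyte and neutrophil markers, beside 1.81%, 0.301% and 4.52%. The shares are as counted, in cells of unequal depth, and the part of such RNA in the result was not tested. Their median was 7134 UMIs, beside 3923 in the other SGC. In 13 of the 18 cells S genes gave more UMIs, among them all 5 control cells, and the 5 cells with more G2M UMIs all came from injury libraries.

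No gene of the list was called after injury in the other types with at least 20 cells in each library. In myelinating Schwann cells none was tested, so none could be called. The genes of the list that passed the filter were 15 in dendritic cells, 8 in endothelial cells, 10 in fibroblasts, 22 in the neutrophil lineage, 4 in smooth muscle cells and 0 in myelinating Schwann cells, and edgeR called 0 of them (0% of all genes higher in each type but fibroblasts, with 0.0471% higher and 0.0118% lower). None of the genes tested reached an unadjusted p under 0.05, where 1.22%, 0.789%, 1.08%, 0.127%, 0.267% and 0.56% of all genes tested were higher in that order of types, and DESeq2 called 0. With no filter on low counts edgeR also called 0 in each type. At an unadjusted p under 0.05, 7 of 46 were then higher in smooth muscle cells, where 141 of 13044 genes were. In fibroblasts 2 of 49 reached that limit (496 of 15720 genes), 1 of them higher. In dendritic cells 1 of 49 did (332 of 12240 genes) and was not higher, and in the remaining types 0 did. The log2 fold change of *Hmgb2* was -0.35 ± 0.26 in dendritic cells, 0.32 ± 0.30 in endothelial cells, -0.34 ± 0.26 in fibroblasts, -0.17 ± 0.59 in the neutrophil lineage and 1.55 ± 0.95 in smooth muscle cells. *Slbp* had -0.60 ± 0.30, -0.27 ± 0.34, -0.17 ± 0.24, 0.22 ± 0.60 and -0.59 ± 0.48 in the same order. In smooth muscle cells *Hmgb2* and *Smc4* were called higher without injury replicate 1, where 1.44% of all genes were. Injury replicate 2 held 20 such cells, and 1 of them gave 218 of its 229 G2M UMIs. In fibroblasts *Rrm2* was called lower without control replicate 1, where 0.0969% of all genes were. Both calls rest on a lone library that is assumed to vary like the pair in the other condition.

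In the neutrophil lineage and in B cells the replicates differed more than the conditions. The thinned share of cells of the neutrophil lineage with 3 or more UMIs was 32.4% in control replicate 1 and 83.2% in control replicate 2, beside 30.2% in injury replicate 1 and 77.6% in injury replicate 2. Cells with 5 or more of the genes were 9 of 41, 21 of 25, 4 of 20 and 33 of 43 in that order. In these 67 cells the neutrophil markers summed to 1661 UMIs per 10000 and the precursor markers, such as *Elane* and *Camp*, to 1024, beside 2798 and 1241 in the other cells of the lineage. In B cells 1 of 24, 4 of 4, 3 of 10 and 5 of 5 cells had 5 or more of the genes. The gene *Vpreb3*, coding for a protein of B cell precursors, had 2 or more UMIs in 13 of these 13 B cells and in 13 of the other 30.

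Erythroid cells expressed the whole list. All 49 genes were detected in the 46 cells, 45 of which had 5 or more of them. Their summed level was 15774 CPM in control replicate 2, 16923 in injury replicate 1 and 22050 in injury replicate 2, and control replicate 1 had no erythroid cell. The log2 S to G2M ratio was -1.51, -3.15 and -0.73 in these libraries, from 11, 8 and 27 cells. *Hmgb2* led with 3767 CPM, followed by *Rrm2* with 1978, *Ube2c* with 1537, *Slbp* with 1311 and *Cks2*, a regulatory subunit of the cyclin-dependent kinases, with 1084. In T and NK cells, of which control replicate 1 held 59 of 68, 19 cells had 5 or more of the genes, and in monocytes 30 of 80 did, of which 27 had more G2M than S UMIs.

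Other genes of the cell cycle were read from 4 further lists. In macrophages against SGC, 5 of 10 further G2M genes, 4 of 9 further S genes, 1 of 8 genes of G1 and S phase entry and 2 of 11 inhibitors were called higher, and 1 inhibitor lower, where 12.6% of all genes were higher and 16% lower. Among them were *Hmmr* (log2 fold change 4.5 ± 0.79, adjusted p = 5.1e-06), a spindle protein, *Tk1* (4.06 ± 0.58, adjusted p = 4.2e-07), thymidine kinase, and *E2f1* (2.39 ± 0.39, adjusted p = 5.4e-07). The inhibitors were *Cdkn2a* (2.47 ± 0.74) and *Btg2* (2.23 ± 0.39) higher and *Gadd45a* (-2.06 ± 0.49) lower. In the neutrophil lineage the counts were 9 of 10, 6 of 9, 3 of 8 (with 1 lower) and 1 of 11, where 11.8% of all genes were higher and 20.6% lower. After injury in macrophages none of these genes was called, with medians of 2.50 over 12 further G2M genes, 0.73 over 12 further S genes, 0.04 over 10 genes of G1 and entry and -0.21 over 8 inhibitors, on the log2 scale. These medians leave out the genes that the filter on low counts removed in macrophages. Over all cells 26 further G2M and 16 further S genes were tested. A gene high in the injury libraries alone can pass the filter, which can raise the medians. *Prc1*, which bundles microtubules of the central spindle, had 4.89 ± 0.84 (adjusted p = 0.11), and *Cdkn1c*, the inhibitor p57, had -1.50 ± 0.44 (adjusted p = 0.31).

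The genes outside the list whose level followed it most closely were ranked by Spearman correlation with the summed CPM of the 49 genes over 42 sums of at least 20 cells per library and type, among 5841 genes. They were *Smc2* (0.87), *2810417H13Rik* (0.87), *H2afz* (0.86), *Lmnb1* (0.86), *Asf1b* (0.81), *Spc25* (0.80), *Arhgdib* (0.80), *H3f3a* (0.80), *Ube2d3* (0.79) and *Abracl* (0.79). *Smc2* codes for the condensin partner of SMC4, *H2afz* for a variant of histone H2A and *Lmnb1* for lamin B1. The sums share libraries and depth, so these values are a description.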

How the data were processed

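Droplet 3′ libraries of 4 DRG samples were used. The authors deposited raw UMI counts per gene and barcode, made with Cell Ranger against mm10, and per the labels also used Partek, whose normalized values were not used here. Cells with 600 to 15000 UMIs, 500 to 4000 genes and under 10% mitochondrial UMIs were kept (the study's limits), which left 6095 of 6975 barcodes. The study's own cell total lies between these numbers. Scrublet marked 37 barcodes (0.530%), which were kept, and 20 barcode sequences occurred in more than 1 library. Types were gated on marker genes, as the mean of marker levels scaled to their 0.9 quantile (limit 0.25), and set beside Leiden clusters made without the 49 genes (scanpy 1.11.5). The clusters were named by the gate label of most of their cells, so they are no independent check of the gate. Of 928 macrophages, 926 fell in clusters named for them. Clusters left unnamed held 124 of 133 *Scn7a* glia and 127 of 1346 SGC.

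UMIs were summed per library and type (at least 20 cells) and tested with edgeR 4.0.16 (TMM, filterByExpr, quasi-likelihood test). The adjusted p is over all genes tested and the p values measure only the spread between these libraries. The SE printed with an edgeR fold change was calculated back from the test. It is the absolute log2 fold change divided by the square root of the F statistic. DESeq2 1.42.0, no filter on low counts, other size factors, a replicate block, all barcodes and leaving out each library were alternatives. Thinned shares are exact hypergeometric expectations, binomial intervals are Clopper-Pearson, and the floor for a count of 0 is 3 counts. Both cover counting error only, since depth per cell differed between libraries. The scripts were tested on simulated data.

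The study tested cells with ANOVA, and its thresholds were kept. The 49 genes, the lists and the tests were chosen with earlier results of these data known. Named genes were the 5 S and 5 G2M genes with the most UMIs where none was called, *Mki67*, *Top2a*, *Cdk1*, *Pcna* and *Mcm5*, and the first 10 genes by likeness, and others named were chosen after their values were seen. The values of some marker genes are not reported here.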

Additional observations from a re-analysis of the deposited data

Results flagged for a closer look

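Among the 259 barcodes above the upper limits on UMIs and genes, which entered no comparison, 6 were gated as macrophages, and all 6 had 5 or more of the 49 genes. All came from injury replicate 1, and control replicates 1 and 2 and injury replicate 2 held 0 such barcodes. They were flagged because they lie outside the main measurement and no control barcode above the limits was gated as a macrophage. Having 5 or more of the genes was common among barcodes above the limits that were not gated as neurons. Of these, 5 of 7 and 4 of 5 in the controls and 9 of 9 and 6 of 7 after injury had them (replicates 1 and 2). No explanation was tested.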

How the results depend on the processing

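In gated macrophages after injury, where the edgeR fit called 0 genes of the list, 3 were called with RLE size factors (0.0615% of all genes higher), 3 by DESeq2, 17 with no filter on low counts, 4 with all deposited barcodes (0.107%) and 15 with the replicate block (0.584%), which leaves 1 residual degree of freedom and rests on a number that the labels do not tie to a shared animal or day. Leaving out a library gave 4 to 26, in SGC 0 to 4 and in the other types together 0 to 2, each with a lone library assumed to vary like the others. Against SGC, DESeq2 called 2 genes higher in endothelial cells, 1 in myelinating Schwann cells (and 1 lower), 3 in pericytes and 4 in smooth muscle cells, where 11.2%, 4.15% (4.53% lower), 9.14% and 10.4% of all genes were. With no filter the numbers were 2 higher and 3 lower in endothelial cells (7.83% and 7.42% of all genes), 1 and 1 in fibroblasts (7.78% and 4.73%), 0 and 1 in myelinating Schwann cells (2.11% and 3.14%), 2 and 1 in pericytes (4.26% and 3.99%) and 7 and 1 in smooth muscle cells (6.17% and 5.57%), and with 10 cells per sum 1 in fibroblasts and 2 in smooth muscle cells. With 10 cells per sum, 758 and 748 of all 7683 genes were higher in fibroblasts and smooth muscle cells. Leaving out a library gave 0 to 1 in endothelial and myelinating Schwann cells, 0 to 2 in fibroblasts and smooth muscle cells and 1 to 2 in pericytes. Over all genes these counts were 668 to 809 in endothelial cells, 220 to 268 in myelinating Schwann cells and 589 to 735 in fibroblasts. They were 525 to 679 in smooth muscle cells, of 5918 to 7620 genes tested, and 579 and 592 in pericytes, of 6983 and 6650. In macrophages leaving out a library gave from 18 of 26 genes of the list tested (802 of 5918 genes higher) to 32 of 36 (969 of 7620 genes higher). The difference in the share of macrophages with 3 or more UMIs, 31.1 percentage points, was 14.0 thinned to 1000 UMIs and 17.7 thinned to 2000. Over all cells it ran from -3.98 to 16.9 points when a library was left out. The difference in the log2 S to G2M ratio moved in macrophages from -1.28 to -1.74 without *Hmgb2*, and over all cells from -0.45 to -0.69 without *Hmgb2*, -0.51 with no upper limit on UMIs and -0.33 in cells with 3 or more UMIs. *Pcna* changed sign in macrophages (-0.06 in the report, 0.038 with no filter, 0.67 without control replicate 2, 0.42 without injury replicate 1, and -0.75 to 0.67 over the libraries left out) and over all cells (-0.48 without injury replicate 2, and up to 0.62 without injury replicate 1). The ratio changed sign in SGC (-0.40 in cells with 3 or more UMIs, -0.16 without control replicate 2, -0.14 without injury replicate 1, and up to 1.04 without injury replicate 2) and in smooth muscle cells (0.084 without *Hmgb2*, 0.69 without injury replicate 2, and down to -0.90 without control replicate 1). The cause was not tested. With 2 libraries per condition and 59 macrophages in control replicate 2, genes with few control UMIs limit every fold given.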

Other observations

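Cells that the gate gave no single type also held some of these genes. Of 277 cells with markers of several types, 35 had 5 or more of the 49 genes, as did 12 of 304 cells without a type and 3 of 228 glia that were neither SGC, *Scn7a* glia nor myelinating Schwann cells. Of the barcodes above the upper limits, those gated as neurons had 5 or more of the genes in 11 of 19 and 38 of 120 control cells (replicates 1 and 2) and in 15 of 30 and 33 of 62 injury cells, at median depths of 21091 to 31887 UMIs over all such barcodes of a library. Below the limits, 1 of 70 neurons did.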
